A study of Mus musculus with 18 samples.

Results

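The 6 genes described here encode the enzymes that open the breakdown of the branched-chain amino acids leucine, isoleucine and valine, and the kinase that restrains it. They are Bcat1, Bcat2, Bckdha, Bckdhb, Dbt and Bckdk, and were taken by symbol from a table of 24062 genes. All 6 were among the 12859 genes that passed the filter on low counts. They were proposed as a set when results of these data were already known, Bcat1 being a known leukemia gene. Their response to biallelic Ddx41 deletion, and every difference that includes it, is therefore given as a description without a p-value, and a member counted there as past the threshold is not a test of it.

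The study measured RNA in immortalized mouse progenitor lines in which Ddx41, a DEAD-box RNA helicase gene, can be deleted by an inducible Cre. Lineage-negative bone marrow cells of Ddx41-floxed, Rosa-CreERT mice had been transduced with an MLL-AF9 retrovirus, and the lines were kept in IL-3, SCF and IL-6. All 18 libraries therefore come from cells carrying the MLL-AF9 oncogene, and the treatment protocol gives CreERT for the lines in general. The cells were collected after 48 h, a time chosen by the study because loss of both alleles is lethal soon afterwards.

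There were 6 groups of 3 libraries, lettered A to C. WT cells were +/+, Het cells were +/flox and became +/- on Cre activation, and FF cells were flox/flox and became -/-. Each genotype received either ethanol, the vehicle (EtOH), or 1 µM 4-hydroxytamoxifen (4OHT), the ligand that activates CreERT. The labels do not say how many independent lines stand behind a genotype, or whether the letters are separate cultures, so a p-value here is set by variation among these libraries alone, and that may be technical. The totals ran from 24730213 to 49277884 counts per library, and no pair of libraries was identical among 153.

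The targeted gene was lower where the labels give an induced deletion. Ddx41 stood at 112, 82.0 and 73.7 CPM (counts scaled to the TMM-normalized library size) in FF libraries A, B and C in ethanol, and at 14.6, 16.5 and 17.7 CPM in 4OHT, which is 18.2% of the ethanol mean. Treated Het cells kept 65.4% of their ethanol mean, and treated WT cells 102%. WT libraries ran from 80.1 to 89.6 CPM in ethanol and from 75.5 to 93.0 CPM in 4OHT, overlapping FF ethanol libraries. Ddx41 therefore cannot show an exchange of labels among these groups. Other genes set single libraries apart. Eif2s3y, a gene of the Y chromosome, had 0 counts in 5 FF libraries and in the library labelled WT 4OHT C, but 2274 counts in the library labelled FF EtOH C. Tgm2 was at 25.4 CPM in the library labelled WT EtOH C and at 480 CPM in the one labelled WT 4OHT C, while WT EtOH A and B had 220 and 227 CPM and WT 4OHT A and B had 18.01 and 17.28 CPM. The labels were used as given. The members' values in FF and WT cells are also given without the libraries labelled FF EtOH C and WT 4OHT C. So are the pathway calls that these libraries decide. The library labelled WT EtOH C was left out as well only where this is stated, so the other WT values include it.

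The defining markers matched hematopoietic cells in part. Ptprc, the pan-leukocyte gene, stood at 358 ± 36.6 CPM (SD, n = 3) in FF ethanol cells. Lymphoid, natural killer and erythroid markers were at or near 0, with Hbb-bs and Hba-a1 at 0 in every library. Cd34 and Flt3 were near 0 in FF cells, with means of 0.293 and 0.164 CPM in ethanol and 0.232 and 0.154 CPM in 4OHT, but not in every line. Flt3 averaged 5.84 and 5.88 CPM in Het ethanol and 4OHT cells, and Cd34 averaged 1.94 and 2.70 CPM in WT ethanol and 4OHT cells. The 4 stromal markers summed to 14.5 to 25.6 CPM in Het libraries, mostly Pdgfrb (16.1 and 18.4 CPM in ethanol and 4OHT), and to 1.74 to 7.59 CPM in WT and FF libraries. Their 3 tested members did not pass with edgeR in any line's response. All 4 monocyte and macrophage markers tested (Csf1r, Lyz2, Cd14 and Mpeg1) rose in FF cells under 4OHT (edgeR adjusted p under 0.05), as did 5.16% of all genes tested. Their summed level went from 303 to 383 CPM in ethanol to 1272 to 1739 CPM. Cd14 did not pass without FF EtOH A or B or any FF 4OHT library (edgeR adjusted p from 0.057 to 0.224), without the count filter (0.055) or with the compared groups alone (0.052). Of 10 progenitor markers, Mpo and Myb fell, as did 8.29% of all genes tested, and the FF groups of the others overlapped. The sum of the 10 went from 2293 to 4012 CPM to 1861 to 2350 CPM, and these ranges overlap. Mpo alone went from 1458 ± 799 to 359 ± 175 CPM (SD, n = 3). Mpo and Myb were not recomputed in the alternatives. The 4 late neutrophil markers tested (Ltf, Camp, S100a8 and S100a9) did not pass with edgeR in any line's response. In FF cells they summed to 419 to 1140 CPM in ethanol and to 642 to 1165 CPM in 4OHT. The part of the monocyte and progenitor shifts in the results below was not tested. In bulk RNA fewer cells of a type and less RNA per cell cannot be told apart.

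Branched-chain amino acids are essential, and cells use them for protein synthesis, as a signal to mTORC1 and as a source of nitrogen. The aminotransferases, cytosolic BCAT1 and mitochondrial BCAT2, reversibly move the amino group to 2-oxoglutarate and so make glutamate and a branched-chain keto acid. The branched-chain keto acid dehydrogenase complex in the mitochondrion then commits the keto acid to oxidation. BCKDHA and BCKDHB form its decarboxylase (E1), DBT is its transacylase core (E2), DLD is the shared E3 subunit, BCKDK phosphorylates and inhibits E1, and PPM1K removes that phosphate. BCAT1 is known in myeloid leukemias as the aminotransferase that is often highly expressed and that can sustain growth.

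Bcat1 and Bckdk were the members with the largest differences in FF cells, so the sequences upstream of their starts are shown. They come from RefSeq on GRCm38.p6, read 5′ to 3′ on the gene's strand, and bases in annotated untranslated exon were removed. Capitals mark matches to a CCAAT box (CCAAT, or ATTGG on the other strand) or a TATA box (TATAAA, or TTTATA on the other strand).
Bcat1, upstream start, minus strand, chr6:145076185-145076407: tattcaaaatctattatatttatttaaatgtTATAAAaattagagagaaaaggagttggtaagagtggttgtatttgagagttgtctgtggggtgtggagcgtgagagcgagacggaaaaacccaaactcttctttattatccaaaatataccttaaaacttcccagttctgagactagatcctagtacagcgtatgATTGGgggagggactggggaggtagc
Bcat1, internal start, minus strand, chr6:145048813-145049062: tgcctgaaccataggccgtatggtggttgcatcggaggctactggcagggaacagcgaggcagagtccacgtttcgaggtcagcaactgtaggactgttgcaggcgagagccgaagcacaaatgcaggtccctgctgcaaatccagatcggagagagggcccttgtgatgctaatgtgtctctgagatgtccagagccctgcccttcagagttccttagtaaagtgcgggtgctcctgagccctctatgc
Bckdk, plus strand, chr7:127903823-127904072: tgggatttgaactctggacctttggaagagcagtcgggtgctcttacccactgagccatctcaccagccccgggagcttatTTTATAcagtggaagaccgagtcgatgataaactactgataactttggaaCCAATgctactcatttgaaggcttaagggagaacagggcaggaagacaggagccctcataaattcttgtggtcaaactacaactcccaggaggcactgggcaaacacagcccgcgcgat

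The RefSeq table gave 8 start windows of 250 bases for 5 of the members, with no entry for Dbt. The upstream Bcat1 window and the Bckdk window each held 1 CCAAT and 1 TATAAA match, and the internal Bcat1 window held neither. Over all 32851 windows of that length, 33.8% held CCAAT and 12.4% held TATAAA on either strand. None of the 8 member windows held CACGTG, the E box read by MYC and its partners (6.02% of all windows), or TGATGNAAN, a form of the ATF4 response element (3.44%). A GC box, GGGCGG, is in 32.7% of all windows and among the members was found upstream of Bckdhb. The absence of a match says only that these letters are not in the window, and a match is not a measured site.

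On GRCm38 (GENCODE M21) all 6 are protein-coding genes. That annotation gave the exon lengths and overlaps used here. The one behind the deposited counts is not given in the sources used here and may differ. Bcat1 (ENSMUSG00000030268.17) lies at chr6:144993835-145076184 on the minus strand, Bcat2 (ENSMUSG00000030826.19) at chr7:45570153-45589711 on the plus strand, and Bckdha (ENSMUSG00000060376.7) at chr7:25629946-25658981 on the minus strand. Bckdhb (ENSMUSG00000032263.14) lies at chr9:83925145-84124240, Bckdk (ENSMUSG00000030802.14) at chr7:127904082-127910221 and Dbt (ENSMUSG00000000340.10) at chr3:116513070-116549981, all on the plus strand. The sources used here do not state whether counting used strand, so where exons overlap, reads of a gene on the opposite strand cannot be told apart. Bckdha shares 1171 of its 1899 exon bases with B3gnt8, Bcat2 shares 622 with 0610005C13Rik and Bcat1 shares 337 with Gm26666. Bckdha values are therefore uncertain, and B3gnt8 itself had an FF response of -0.00 ± 0.31 (log2 ± SE).

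Per length the 6 genes covered a wide range of RNA levels. In FF ethanol cells the levels per length (RPKM, which is CPM per kilobase of exon; mean ± SD, n = 3) were 45.7 ± 5.29 for Bckdha, 31.1 ± 7.78 for Bckdk and 25.0 ± 2.96 for Bcat2. Dbt followed at 12.7 ± 0.594 RPKM, Bckdhb at 5.34 ± 0.212 and Bcat1 at 1.49 ± 0.161. Bckdk and Bcat2 overlapped between libraries (25.3 to 39.9 and 21.7 to 27.5 RPKM), and the other neighbours in this order did not. Per length Bcat1 was thus the scarcest of the 6 transcripts, and the mitochondrial aminotransferase Bcat2 made up most aminotransferase RNA in every library. The place of Bcat1 rests on its merged exon length of 9322 bases, against 1805 for Bckdhb. Without division by length Bckdhb was lower, at 9.63 against 13.9 CPM in FF ethanol cells.

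Bcat1, the cytosolic aminotransferase, was far below its ethanol level after biallelic deletion and did not move detectably in the other lines. FF libraries A, B and C had 15.2, 14.2 and 12.2 CPM in ethanol and 3.84, 3.67 and 1.79 CPM in 4OHT. The 3 treated libraries lay below every other library of the series, the other 15 running from 9.13 to 15.4 CPM with a median of 12.6. These values rest on 1093 counts in FF ethanol and on 97, 113 and 43 counts in FF 4OHT. The FF 4OHT mean was 22.4% of the ethanol mean, 4.47-fold lower, and the fitted log2 fold change was -2.15 ± 0.26 (SE). Without the libraries labelled FF EtOH C and WT 4OHT C it was -2.24 ± 0.28.

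In WT cells Bcat1 had 15.4, 15.2 and 10.9 CPM in ethanol and 12.6, 12.1 and 13.8 CPM in 4OHT. In Het cells it had 10.2, 10.3 and 12.7 CPM in ethanol and 9.13, 12.1 and 14.7 CPM in 4OHT. Treated and untreated libraries overlapped in both lines, with log2 fold changes of -0.11 ± 0.24 in WT (95% interval -0.63 to 0.41) and 0.11 ± 0.24 in Het (-0.41 to 0.64). By edgeR's quasi-likelihood test with Benjamini-Hochberg adjustment, both adjusted p-values were 1. Without the libraries labelled FF EtOH C and WT 4OHT C the WT value was -0.17 ± 0.27, and without WT EtOH C as well it was -0.30 ± 0.29. The intervals leave room for changes of moderate size in either direction. The mean levels ordered FF ethanol (13.9 ± 1.501 CPM), WT ethanol (13.8 ± 2.52), WT 4OHT (12.8 ± 0.876), Het 4OHT (11.97 ± 2.77) and Het ethanol (11.06 ± 1.397), neighbours whose libraries overlapped, with FF 4OHT (3.10 ± 1.14, SD, n = 3) apart at the end.

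Bcat2, the mitochondrial aminotransferase, had lower values in all 3 FF libraries under 4OHT than in ethanol. Its FF libraries had 84.6, 100 and 107 CPM in ethanol and 75.2, 78.0 and 78.2 CPM in 4OHT, a treated mean of 79.2% of the ethanol mean. The log2 fold change was -0.34 ± 0.15 and was not among those past the threshold. Without the 2 libraries labelled FF EtOH C and WT 4OHT C it was -0.26 ± 0.17, and the WT value was -0.01 ± 0.17. WT cells had 105, 95.7 and 124 CPM in ethanol and 101, 114 and 126 CPM in 4OHT (log2 0.07 ± 0.15). Het cells had 91.3, 77.9 and 86.6 CPM in ethanol and 119, 78.7 and 79.7 CPM in 4OHT (log2 0.12 ± 0.15), with Het 4OHT A alone at the high end. The edgeR adjusted p was 1 in both lines.

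**Figure D1:**
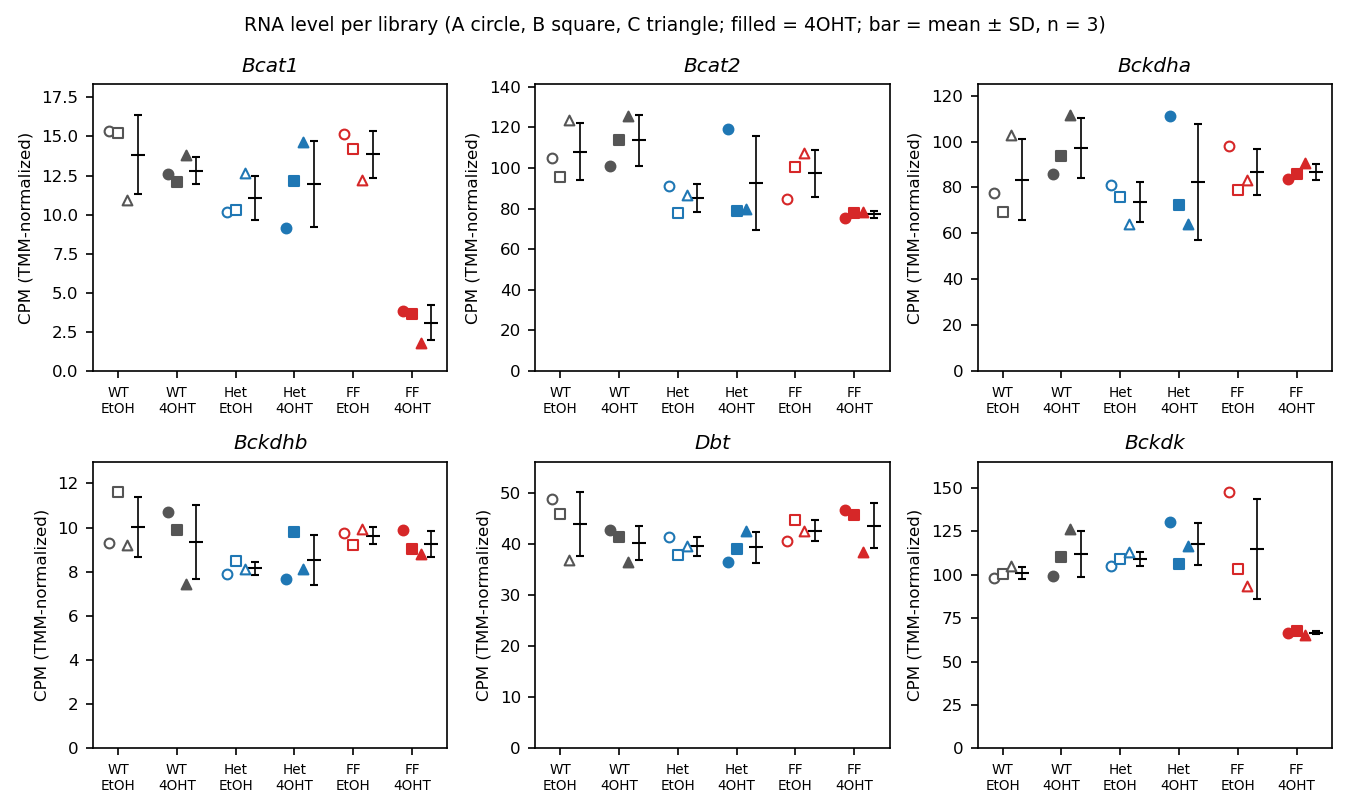
Normalized RNA level (CPM, linear axis from 0) of the 6 genes in each of the 18 libraries, with open symbols for ethanol, filled symbols for 4OHT, letters A to C as circle, square and triangle, and bars for mean ± SD (n = 3). The 3 FF 4OHT libraries lie below all others for Bcat1 and for Bckdk, while Bckdha, Bckdhb and Dbt overlap between ethanol and 4OHT in every line.

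The balance between the aminotransferases moved with Bcat1. As a share of the summed RPKM of both genes, Bcat1 made up 6.98, 5.59 and 4.55% in FF ethanol libraries and 2.10, 1.93 and 0.948% in FF 4OHT libraries. The means were 5.71 ± 1.22% and 1.66 ± 0.620% (SD, n = 3). In the other 15 libraries the share ran from 3.10%, in Het 4OHT A, to 7.15%, in Het 4OHT C. Every FF 4OHT library was below that range, and the spread within Het 4OHT cells was wider than in any other group.

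The decarboxylase subunit gene Bckdha had nearly the same mean in FF cells with and without deletion. It stood at 98.1, 78.9 and 83.3 CPM in ethanol and at 83.9, 85.7 and 90.5 CPM in 4OHT, and the treated libraries lay inside the ethanol range. The log2 fold change was -0.00 ± 0.19 in FF, 0.16 ± 0.19 in Het and 0.22 ± 0.19 in WT cells. Without the libraries labelled FF EtOH C and WT 4OHT C it was -0.03 ± 0.21 in FF and 0.11 ± 0.21 in WT cells. Het 4OHT A was again high, at 111 CPM against 72.5 and 63.9 CPM in B and C. In WT cells the values were 77.8, 69.5 and 103 CPM in ethanol and 86.0, 93.7 and 111 CPM in 4OHT, and letter C was highest in both groups.

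Bckdhb, the partner E1 subunit, was present at far fewer transcripts per length than Bckdha. FF libraries had 9.75, 9.20 and 9.94 CPM in ethanol and 9.91, 9.03 and 8.82 CPM in 4OHT, with a log2 fold change of -0.06 ± 0.16. WT libraries had 9.30, 11.6 and 9.19 CPM against 10.7, 9.91 and 7.47 CPM (log2 -0.10 ± 0.16), and Het libraries 7.88, 8.48 and 8.12 CPM against 7.68, 9.79 and 8.13 CPM (log2 0.07 ± 0.16). All 3 pairs of groups overlapped. The Bckdhb values without the libraries labelled FF EtOH C and WT 4OHT C were -0.03 ± 0.17 in FF and 0.04 ± 0.16 in WT cells, the latter with the opposite sign. The RPKM ratio of Bckdhb to Bckdha was 0.118 ± 0.0114 in FF ethanol and 0.113 ± 0.0110 in FF 4OHT cells (SD, n = 3).

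Dbt, the E2 core of the complex, likewise overlapped in all lines. FF libraries had 40.7, 44.6 and 42.6 CPM in ethanol and 46.6, 45.7 and 38.5 CPM in 4OHT, with a log2 fold change of 0.03 ± 0.12. WT libraries went from 48.8, 46.0 and 36.9 CPM to 42.8, 41.4 and 36.4 CPM (log2 -0.13 ± 0.12), and Het libraries from 41.4, 37.8 and 39.5 CPM to 36.5, 38.9 and 42.6 CPM (log2 -0.01 ± 0.12). The Dbt values without the libraries labelled FF EtOH C and WT 4OHT C were 0.03 ± 0.14 in FF and -0.06 ± 0.14 in WT cells. The RPKM ratio of Dbt to Bckdha was 0.282 ± 0.0435 in FF ethanol and 0.286 ± 0.0396 in FF 4OHT cells. The structural subunits of the complex thus kept their ratios within the spread of the libraries.

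Bckdk, the inhibitory kinase, was the other member well below its ethanol level in deleted cells. FF libraries A, B and C had 148, 103 and 93.5 CPM in ethanol and 66.7, 67.7 and 65.6 CPM in 4OHT. The treated libraries lay close together and below the other 15, which ran from 93.5 to 148 CPM, and the highest of all was FF EtOH A. The treated mean was 58.1% of the ethanol mean, 1.72-fold lower, with a log2 fold change of -0.78 ± 0.14. Leaving out FF EtOH A gave -0.56, the smallest size among the alternatives, and leaving out the libraries labelled FF EtOH C and WT 4OHT C gave -0.91 ± 0.14 in FF and 0.05 ± 0.14 in WT cells. WT cells had 98.1, 100 and 105 CPM in ethanol and 99.4, 110 and 126 CPM in 4OHT (log2 0.15 ± 0.14). Het cells had 105, 109 and 113 CPM in ethanol and 131, 106 and 116 CPM in 4OHT (log2 0.11 ± 0.14), so treated libraries overlapped untreated ones in both lines.

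The kinase stood lower relative to its target subunit as well. The RPKM ratio of Bckdk to Bckdha was 0.773, 0.673 and 0.577 in FF ethanol libraries and 0.409, 0.406 and 0.372 in FF 4OHT libraries. In the other 15 libraries it ran from 0.524 to 0.935. The ratio carries the uncertainty of Bckdha counts named above, since B3gnt8 exons overlap it, and RNA ratios are not measures of phosphorylation or flux.

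**Figure D2:**
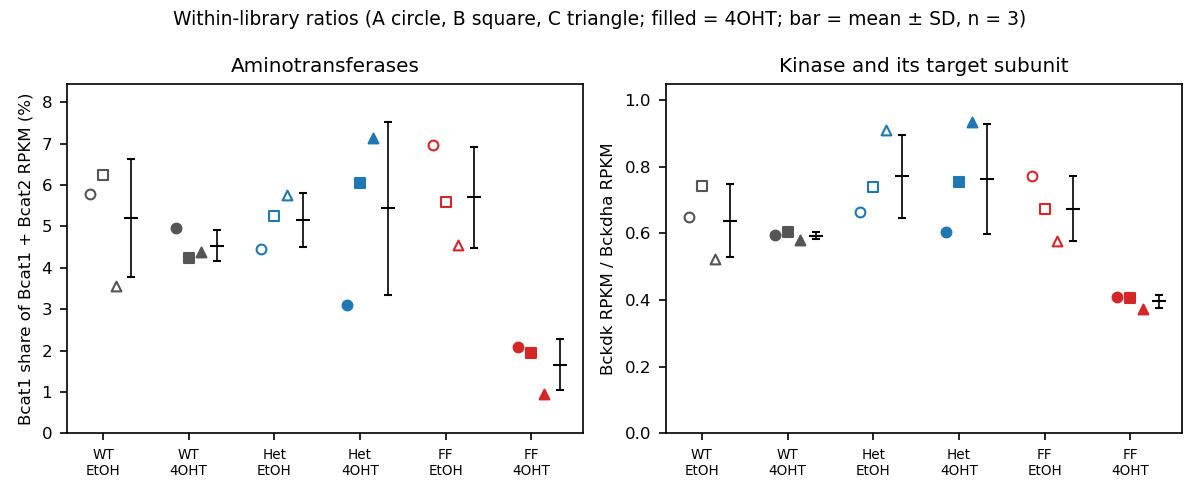
Ratios within each library, with Bcat1 as a percentage of Bcat1 plus Bcat2 RPKM on the left and Bckdk RPKM divided by Bckdha RPKM on the right, symbols as letters A to C, filled for 4OHT, and bars for mean ± SD (n = 3). FF 4OHT libraries have 0.948 to 2.10% on the left and 0.372 to 0.409 on the right, below all other libraries in both panels.

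Counted over the 6 members, Bcat1 and Bckdk were past the threshold (edgeR adjusted p under 0.05) and lower in FF cells, where 13.4% of all genes tested were past it in either direction, 8.29% lower and 5.16% higher. Bcat1, Bcat2 and Bckdk had FF groups that did not overlap with 4OHT lower, as did 21.5% of all genes tested, while 18.7% were separate and higher. Nothing is read from these counts, since the contrast was known when the members were chosen. The members' median log2 fold change was -0.20 in FF cells, against -0.02 over all 12859 genes.

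In Het and WT cells none of the 6 passed the threshold with edgeR, none had an unadjusted p under 0.05, and DESeq2 called none. Ddx41 itself did not pass in Het cells (log2 -0.61 ± 0.16, edgeR adjusted p = 0.86), although its Het groups were separate. A gene that did not pass in Het cells is therefore not shown to be unchanged. Few genes of any kind passed there, 0.0156% of all genes tested in Het and 0% in WT. No member's groups were separate in either line, where 2.71% of genes in Het and 1.97% in WT were separate and lower, and 2.23% and 2.85% separate and higher. The medians of the 6 were 0.11 in Het and -0.01 in WT cells, against 0.00 over all genes in both.

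**Figure D3:**
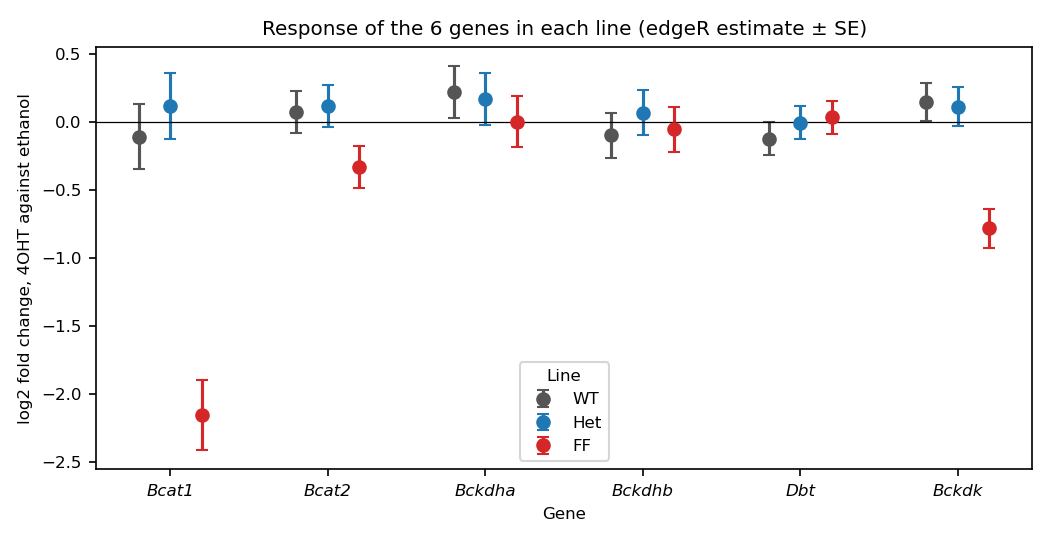
Fitted log2 fold change of 4OHT against ethanol for each of the 6 genes in WT, Het and FF cells, with bars for ± SE from edgeR. Bcat1 at -2.15 and Bckdk at -0.78 in FF cells stand apart from the WT and Het estimates of the same genes, which lie between -0.13 and 0.22 for all members.

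The differences between the lines' responses are given as sizes. The FF response minus the WT response was -2.04 ± 0.35 for Bcat1, -0.93 ± 0.20 for Bckdk and -0.41 for Bcat2 on the log2 scale. The FF response minus the Het response was -2.27 ± 0.35 for Bcat1, -0.89 ± 0.20 for Bckdk and -0.45 for Bcat2. These differences share the FF libraries. Bcat1 and Bckdk were past the threshold in both, where 2.3% and 2.5% of all genes tested were past it in either direction (1.89% and 2.09% lower, 0.412% and 0.404% higher). Bcat1 stayed past it in all 22 alternatives against Het and in 21 of 22 against WT. The 1 exception left out FF EtOH C, WT 4OHT C and WT EtOH C. Bckdk was no longer past it in 7 of 22 alternatives against WT and in 8 of 22 against Het. Over the alternatives run, the difference of Bcat1 ran from -2.22 to -1.76 against WT and from -2.50 to -1.97 against Het, its size being smallest without FF 4OHT C in both. That of Bckdk ran from -1.06 to -0.71 against WT and from -1.02 to -0.67 against Het, its size being smallest without FF EtOH A in both. Without the libraries labelled FF EtOH C and WT 4OHT C the differences from WT and Het were -2.07 and -2.35 for Bcat1 and -0.96 and -1.02 for Bckdk.

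Before deletion no member differed between lines past the threshold. Between FF and WT cells in ethanol none of the 6 passed the edgeR threshold, none had an unadjusted p under 0.05 and DESeq2 called none, where 0% of all genes tested passed. The shares of all genes include the libraries labelled FF EtOH C and WT EtOH C, which Eif2s3y and Tgm2 set apart. They are not given without these libraries, so the 0% does not show that the FF and WT lines are alike. No member was separate between these lines, as 4.95% of genes were with FF lower and 4.11% with FF higher. Bcat1 differed by 0.00 ± 0.24 (log2, 95% interval -0.52 to 0.53) and Bckdk by 0.18 ± 0.14 (-0.13 to 0.49). Without the libraries labelled FF EtOH C and WT 4OHT C these were 0.08 ± 0.27 for Bcat1 and 0.31 ± 0.14 for Bckdk (edgeR adjusted p = 0.94 and 0.30), and without FF EtOH A the Bckdk value was -0.04. Between Het and WT cells none passed either, 1 had an unadjusted p under 0.05 and DESeq2 called none, although 23.7% of all genes tested passed (13.3% higher, 10.4% lower). That gene was Bcat2, lower in Het cells by a log2 of -0.34 ± 0.15 (edgeR adjusted p = 0.13), with all 3 Het libraries below all 3 WT libraries. Bckdhb was separate in the same direction (log2 -0.30 ± 0.16, edgeR adjusted p = 0.21), and 22.8% of all genes tested were, with 22.5% separate and higher. Without FF EtOH C, WT 4OHT C and Het 4OHT A, Bcat2 passed the threshold at -0.31 (edgeR adjusted p = 0.034), whereas without FF EtOH C, WT 4OHT C and WT EtOH C it was -0.18 (0.45). Between FF and Het cells all 6 estimates were above 0, none passed by edgeR or DESeq2 and none had an unadjusted p under 0.05, where 16.8% of all genes passed (7.74% higher, 9.04% lower). Bckdhb was separate, with FF above Het, as 19% of all genes were (18.7% below). The estimate for Bcat1 there was 0.33 ± 0.24 (edgeR adjusted p = 0.41), and that for Bckdk turned to -0.15 without FF EtOH A.

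The other genes of the pathway were read from lists of 69 genes found in the table, all of them tested. In FF cells 17 fell and 2 rose under 4OHT, 50 did not pass, and the median log2 fold change was -0.12 against -0.02 over all genes. The 17 and 2 are 24.6% and 2.90% of the 69, where 8.29% of all genes tested were lower and 5.16% higher past the threshold. No test of the lists against other genes was made. The lists were written with earlier results of these data known. The shares given here and for the single lists below are therefore descriptions and do not show an excess over other genes. The adjusted p-values of list genes carry the same limit. In Het and WT cells none of the 69 passed with edgeR, with 2 and 1 at an unadjusted p under 0.05 and 0 called by DESeq2. The FF response was lower than the WT response for 7 of the 69 and lower than the Het response for 4, and higher for none (edgeR), while DESeq2 called 10 and 8. At an unadjusted p under 0.05 these differences held 22 and 17 genes in either direction. Without FF 4OHT C the FF count was 9. The remaining parts of the dehydrogenase complex did not pass. The shared E3 gene Dld had a log2 fold change of -0.02 ± 0.14 (edgeR adjusted p = 0.94) and the phosphatase gene Ppm1k one of 0.37 ± 0.21 (0.27).

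Of 22 genes that act after the dehydrogenase, 3 fell (13.6%, against 8.29% of all genes) and 19 did not pass, with a median of -0.08. Mmab, which makes the cobalamin cofactor of methylmalonyl-CoA mutase, fell from 32.1 to 19.3 CPM (log2 -0.74 ± 0.14, edgeR adjusted p = 0.0025). Hibch, the hydrolase of the valine branch, fell by 0.56 on the log2 scale (edgeR adjusted p = 0.014), but did not pass without FF EtOH B (0.064) or FF 4OHT C (0.086). Pcca, a propionyl-CoA carboxylase subunit, fell by 0.41 (0.048) and did not pass without any of FF EtOH B or C or FF 4OHT A, B or C (0.063 to 0.220). Its call also ended with DESeq2 size factors (0.055), with library totals (0.078), without the count filter (0.075), with the compared groups alone (0.104) and without FF EtOH C and WT 4OHT C together (0.062). The calls of Hibch and Pcca thus depended on single libraries, and that of Pcca on the processing too.

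Among 8 transport genes 2 fell (8.29% of all genes were lower) and 6 did not pass, with a median of -0.10. Slc1a5, a glutamine carrier whose cargo is exchanged for leucine, went from 333 ± 16.3 to 160 ± 9.71 CPM (SD, n = 3; log2 -1.06 ± 0.13, edgeR adjusted p = 0.00015). Slc7a5, the large neutral amino acid carrier LAT1, went from 459 to 301 CPM (log2 -0.61, edgeR adjusted p = 0.0087) and did not pass without FF 4OHT C (0.056). Its heavy chain Slc3a2, named after its values were seen, had a log2 fold change of -0.35 that did not pass (0.16). The FF response of Slc1a5 was also lower than that of WT (-1.11, edgeR adjusted p = 0.0061) and Het cells (-1.16, 0.0041).

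Of the 13 genes of leucine sensing upstream of mTORC1, Rragc, a Rag GTPase, rose (log2 0.33, edgeR adjusted p = 0.042) and 12 did not pass, with a median of 0.07; 5.16% of all genes were higher. Rragc did not pass without FF EtOH A or B or any FF 4OHT library (0.063 to 0.147), or without the count filter (0.086). Of the 6 synthetase genes that charge tRNAs with these amino acids, 5 fell and 1 rose, with a median of -0.53, where 8.29% of all genes were lower and 5.16% higher. The cytosolic valine enzyme Vars fell from 374 to 202 CPM (log2 -0.89 ± 0.10, edgeR adjusted p = 0.00012). Its mitochondrial counterpart Vars2 fell by 0.77, Iars2 by 0.55 and Iars by 0.51 on the log2 scale, and Iars did not pass without FF 4OHT C (0.067). Vars was also lower in the FF response than in that of WT (-1.02, edgeR adjusted p = 0.0043) and Het cells (-0.97, 0.0038).

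The other two synthetase genes are named after their values were seen. Lars fell by 0.37 on the log2 scale (edgeR adjusted p = 0.041), and did not pass without FF EtOH B or C or any FF 4OHT library (0.086 to 0.155), nor with library totals (0.060), without the count filter (0.062), with the compared groups alone (0.095) or without FF EtOH C and WT 4OHT C together (-0.29, 0.157). Lars2, the mitochondrial leucine enzyme, rose by 1.54 ± 0.47 (0.040), from 1521, 2148 and 3109 CPM to 3359, 6709 and 9691 CPM in libraries A, B and C. It did not pass without FF EtOH A or B or FF 4OHT B or C (0.085 to 0.188), or without the count filter (0.081). Rn45s, the ribosomal RNA precursor, ranged alongside it from 3828 to 6464 CPM in FF ethanol and was 5987, 18286 and 41159 CPM in FF 4OHT, and its part in the Lars2 value was not tested.

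Of 11 genes that supply or use glutamate and 2-oxoglutarate, the partners of the aminotransferase reaction, 4 fell (36.4%, against 8.29% of all genes) and 7 did not pass, with a median of -0.30. Idh2, the mitochondrial NADP-dependent isocitrate dehydrogenase, fell by 0.71 on the log2 scale (edgeR adjusted p = 0.00054), and its FF response was lower than that of WT (-0.81, 0.011) and Het cells (-0.86, 0.0076). Without FF EtOH C, WT 4OHT C and WT EtOH C the difference of Idh2 from WT was -0.83 (edgeR adjusted p = 0.050). Gpt2, the mitochondrial alanine aminotransferase, fell by 0.87 (0.0049). Psat1, the aminotransferase of serine synthesis, fell by 0.56 (0.0064). Ogdh, a subunit of 2-oxoglutarate dehydrogenase, fell by 0.55 (0.012) and did not pass without FF EtOH A (0.053) or FF 4OHT C (0.086).

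Of 7 factors linked to Bcat1 in other work, 3 fell (42.9%, against 8.29% of all genes) and 4 did not pass, with a median of -0.40. Msi2, an RNA-binding protein of stem cells, fell by 0.83 on the log2 scale (edgeR adjusted p = 0.0039). Myc, the growth-promoting transcription factor, fell by 0.61 (0.035), and did not pass without FF EtOH A or B or any FF 4OHT library (0.055 to 0.157), or with the compared groups alone (0.062). Dot1l, the histone methyltransferase on which MLL-AF9 cells depend, fell by 0.56 (0.048) and did not pass without the same libraries in turn (0.063 to 0.209), nor with DESeq2 size factors (0.060), with library totals (0.073), without the count filter (0.053), without Rn45s (0.056) or without FF EtOH C, WT 4OHT C and WT EtOH C together (0.056). The differences of Msi2 and Myc from the WT and Het responses did not pass.

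**Figure D4:**
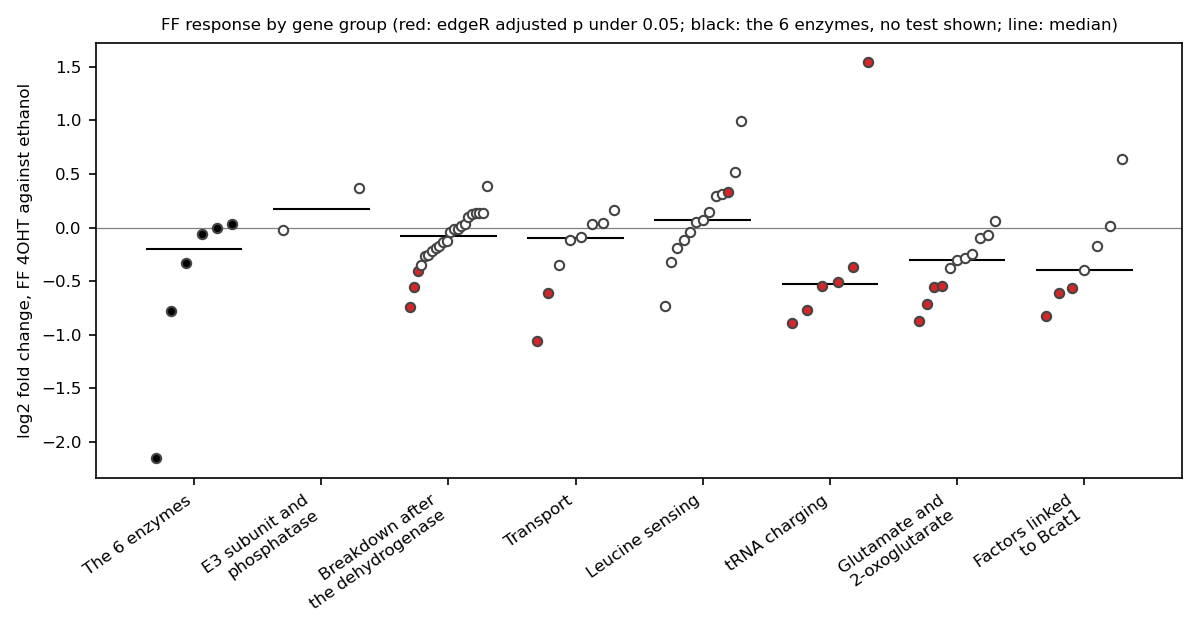
Fitted log2 fold change of FF 4OHT against ethanol for the 6 enzymes and each pathway list, 1 point per gene in order of value, red where edgeR's adjusted p was under 0.05, black for the 6 enzymes, for which no test is shown, and a line at each median. The tRNA-charging list has the lowest median, -0.53, and the leucine-sensing list lies at 0.07.

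Gene models named Gm plus digits or ending in Rik were passed over in the search for genes like Bcat1. Among the other tested genes, those whose levels followed Bcat1 most closely were found by Pearson correlation of log2 CPM across the 18 libraries. They were Polr1a, the largest subunit of RNA polymerase I (0.97), Rtel1, a DNA helicase (0.96), Hdlbp, an RNA-binding protein (0.96), Pcnt, a centrosome protein (0.96), and Kif20a, a mitotic kinesin (0.95). Over the 15 libraries without FF 4OHT the values were 0.88, 0.81, 0.72, 0.76 and 0.59 in that order. The points share libraries, lines and treatment, so the values describe likeness only. Polr1a, for example, went from 133 ± 6.25 to 75.1 ± 5.53 CPM in FF cells (SD, n = 3; log2 -0.82 ± 0.11), a smaller difference than that of Bcat1.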

How the data were processed

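RNA of 18 libraries was sequenced on Illumina instruments from total RNA, per the labels' protocols. The authors deposited raw counts per gene symbol. The submitters' processing notes name featureCounts 1.5.2 of Subread, HISAT2 2.0.5, FastQC 0.11.7, CASAVA 1.4 and the build mm10. The annotation, the strand setting and how multiply mapped reads were treated: not given in the sources used here.

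From these counts edgeR 4.0.16 (R 4.3.3) was run with TMM scaling, filterByExpr at a minimum count of 10, one mean per group over all 6 groups and the robust quasi-likelihood F test, adjusted by Benjamini-Hochberg over 12859 genes at 0.05. SE is the size of the log2 fold change divided by the square root of F. The 95% intervals use 12 residual degrees of freedom. The F test has more, because it pools spread across genes, so the intervals printed are wider than the test implies. CPM use the TMM library sizes, and RPKM the merged exon length in GENCODE M21. The procedure was also run on simulated counts that had the same dispersion setting for every gene. That run does not measure error rates in these data. DESeq2 1.42.0, other scalings, no filter, a replicate block, the compared groups alone and leaving out libraries were alternatives.

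Members and lists were chosen with earlier results of these data known. Genes named from the lists are those past the threshold in FF cells with a mean of at least 1 CPM, up to 4 per list by smallest adjusted p, or the 2 most abundant where none passed. Likeness to Bcat1 is Pearson's correlation of log2 CPM with a prior count of 2. Mut, Lars, Iars and Vars stand for the newer names Mmut, Lars1, Iars1 and Vars1. Letters shared between groups paired Het libraries, with correlations of deviations of 0.52, 0.77 and 0.45 for A, B and C. As every value was over 0.1, the pairing was taken from the data. The fit reported did not use it, and it entered only the alternatives with a replicate block.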

Additional observations from a re-analysis of the deposited data

Results flagged for a closer look

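The responses of FF cells differed from those of the other lines for 2 members, by the fitted difference of responses. For Bcat1 the FF response was lower than the WT response by a log2 difference of -2.04 and than the Het response by -2.27. For Bckdk the differences were -0.93 from WT and -0.89 from Het. Because the members were chosen with the FF response known, these are descriptions, and both differences share the FF libraries.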

How the results depend on the processing

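Over 846 recomputed values of the members, 120 belonged to values past the threshold. All 120 kept their direction and 104 kept the call. The calls that ended were all in the differences of responses. They were those of Bckdk, 7 against WT and 8 against Het, and 1 of Bcat1 against WT. Of the 726 others, 57 changed sign and 1 passed. The FF log2 fold change ran from -2.33 to -1.87 for Bcat1 and from -0.91 to -0.56 for Bckdk. Members past the threshold in the FF minus WT difference numbered 2, and 1 without FF EtOH C, WT 4OHT C and WT EtOH C, where Bcat1 was not counted. In the FF minus Het difference they numbered 2, and 1 with the compared groups alone (Bckdk at -0.85 not counted). Leaving out 1 library at a time gave 1 to 2 members in each difference. In Het against WT cells 0 became 1 without FF EtOH C, WT 4OHT C and Het 4OHT A. The pathway count in FF cells was 19, and 9 to 18 on leaving out 1 library at a time. It was 14 without the count filter and 25 without FF EtOH C, WT 4OHT C and Het 4OHT A. With the letters as a replicate block it was 16, with Pcca (edgeR adjusted p = 0.065), Rragc (0.059), Dot1l (0.062), Lars (0.058) and the marker Cd14 (0.062) among those no longer past the threshold, and the members past the threshold stayed at 2 in FF, 0 in Het and 0 in WT cells. In FF and WT cells the letters were taken as mere numbers, with correlations of deviations for A, B and C of 0.19, 0.31 and 0.08 in FF and 0.56, -0.09 and 0.32 in WT. Each library correlated best with its own letter in FF cells, and WT B did not. Fitting the Het groups alone with that block, an alternative chosen after seeing the data, also gave 0. Leaving Rn45s out of the table, likewise chosen later, gave a pathway count of 18. Depth limits Bcat1 most, at 43 counts in FF 4OHT C.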
